A study of Homo sapiens with 8 samples.

Results

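The miR-17-92 cluster was examined in small RNA-seq libraries of 4 untreated human cancer cell lines, namely ES-2 (ovarian cancer), MV-3 (melanoma), Huh-7 (hepatocellular carcinoma) and A-549 (lung adenocarcinoma). The parental cells had been seeded 48 h before RNA was extracted, and each line was represented by 2 libraries, which the study calls biological replicates. Members were chosen by name as 8 mature miRNAs of this cluster, out of 2588 mature miRNA names measured. They took 10 of 2813 entries, because miR-19b-3p and miR-92a-3p have an entry for chromosome 13 and another for chromosome X, and the entries of a name were summed. Each tumor type is represented by a single established line, so that line and tumor type cannot be told apart.

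Mature miRNAs are cut from hairpins, and each hairpin can yield a 5p and a 3p arm, of which usually a single arm is retained by Argonaute proteins. A miRNA recognises its target mRNAs mainly through the seed, which comprises bases 2 to 8 counted from its 5′ end. The miR-17-92 cluster is transcribed as a single primary RNA from MIR17HG, is induced by the transcription factors MYC and E2F1, and is known as an oncogenic miRNA cluster in lymphomas and in solid tumors. Its miR-17 and miR-20 products target the cell cycle inhibitor CDKN1A.

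The 6 hairpins of the cluster span 787 bases of GRCh38, chr13:91350605-91351391 on the plus strand, in the order miR-17, miR-18a, miR-19a, miR-20a, miR-19b-1 and miR-92a-1. By GENCODE release 44 they are exonic in transcripts of MIR17HG (chr13:91347686-91397592, plus strand). Second copies of miR-92a and miR-19b are encoded on the minus strand of chromosome X, by hairpins at chrX:134169538-134169612 and chrX:134169671-134169766. The mature sequences (RefSeq, GRCh38.p14) are shown 5′ to 3′ with the seed in capitals, since they show which members share a seed and how little these differ. The prefix hsa (Homo sapiens) is omitted after this list.
hsa-miR-17-5p: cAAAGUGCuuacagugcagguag
hsa-miR-20a-5p: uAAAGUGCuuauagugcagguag
hsa-miR-18a-5p: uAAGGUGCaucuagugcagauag
hsa-miR-19a-3p: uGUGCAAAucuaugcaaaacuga
hsa-miR-19b-3p: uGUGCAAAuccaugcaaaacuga
hsa-miR-92a-3p: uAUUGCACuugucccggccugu
hsa-miR-17-3p: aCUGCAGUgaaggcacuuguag
hsa-miR-18a-3p: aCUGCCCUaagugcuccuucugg

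The 8 members carried 6 seeds. miR-17-5p and miR-20a-5p shared a seed and differed by C1U and C12U, counted from the 5′ end with the base of miR-17-5p first. miR-19a-3p and miR-19b-3p also shared a seed and differed by U11C. The sequences of miR-19b-3p and of miR-92a-3p were the same at both of their genomic copies.

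Libraries held 1173902 to 2670030 reads on mature miRNAs. The deposited values, called normalised CPM here, are counts per 1000000 reads (CPM) divided by a trimmed-mean factor (TMM) that offsets differences in composition. Reads per 1000000 miRNA reads without this factor are called library CPM. The TMM factor was 0.608 and 0.593 in A-549, 0.866 and 0.848 in ES-2, 1.15 and 1.18 in MV-3, and 1.63 and 1.70 in Huh-7, so the scales differed most for A-549 and Huh-7. miR-21-5p alone took 64.2% and 65.0% of the reads in A-549, against 27.0% to 33.3% in the other libraries. Checks of line identity showed 252449 and 288469 reads of the hepatocyte miRNA miR-122-5p in Huh-7 and at most 57 in any other library. The melanocyte miRNA miR-211-5p had 0 reads in both MV-3 libraries. The epithelial miRNA miR-200c-3p had 91 and 127 reads in A-549, 394 and 377 in Huh-7, 66 and 84 in ES-2 and 17 and 45 in MV-3, and its partner miR-141-3p had 0 and 1 in A-549 and at most 11 elsewhere, so neither set A-549 apart.

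The cluster was detected in every library, and its reads came almost entirely from miR-92a-3p. In ES-2, the members together held 5.68% ± 0.0534 of miRNA reads (SD, n = 2), compared with 7.82% ± 0.106 in Huh-7, 4.27% ± 0.212 in MV-3 and 1.35% ± 0.0211 in A-549. Of these member reads, miR-92a-3p provided 93.4% ± 0.404 in ES-2, 93.5% ± 0.204 in Huh-7, 94.0% ± 0.352 in MV-3 and 94.7% ± 0.08 in A-549. Among all miRNA names ranked by mean library CPM, miR-92a-3p was number 5 in ES-2, 3 in Huh-7, 5 in MV-3 and 7 in A-549. The next member, miR-20a-5p, followed at ranks 49, 58, 70 and 92 in the same order of lines. Ligation to adapters depends on the ends of a small RNA and was not measured, so read numbers of different miRNAs are not numbers of molecules, and levels and ratios are compared between lines.

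**Figure D1:**
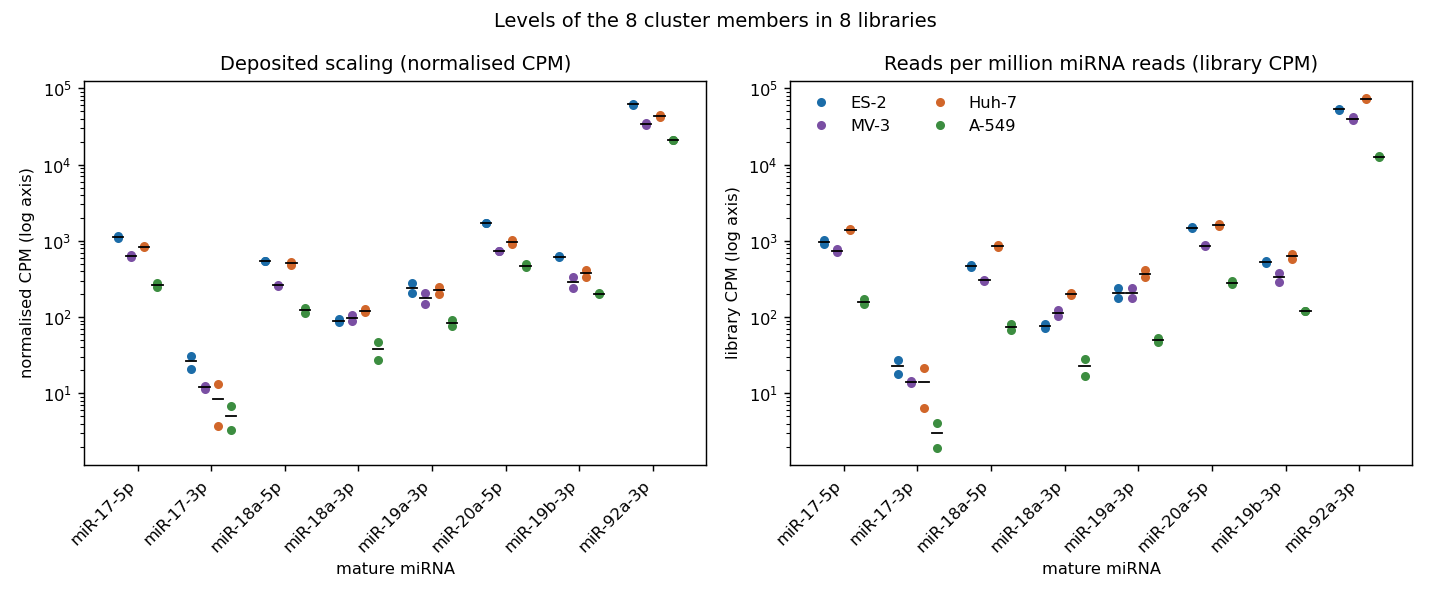
Levels of the 8 members in normalised CPM (left) and library CPM (right), both on log axes, with a point per library, colors for the lines and a short black bar for the mean of the 2 libraries. miR-92a-3p lies above all other members in each line, and A-549 has the lowest mean of each member on both scales.

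miR-92a-3p was the most abundant member. Its normalised CPM was 60629 and 63106 in the ES-2 libraries, 45110 and 42562 in Huh-7, 33575 and 35421 in MV-3, and 21203 and 21239 in A-549. The lines did not overlap, and on this scale ES-2 was highest, followed by Huh-7, MV-3 and A-549. By library CPM the upper lines changed places, with 73119 ± 832 in Huh-7 (SD, n = 2), 53028 ± 728 in ES-2, 40150 ± 2138 in MV-3 and 12752 ± 211 in A-549. The highest line mean exceeded the lowest 2.92-fold by normalised CPM and 5.73-fold by library CPM. In bulk RNA, fewer expressing cells and less RNA per cell cannot be told apart.

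miR-20a-5p and miR-17-5p, which share the miR-17 seed, were the next most abundant members. For miR-20a-5p, normalised CPM was 1739 and 1730 in ES-2, 1022 and 917 in Huh-7, 737 and 739 in MV-3, and 449 and 496 in A-549. For miR-17-5p, it was 1168 and 1079 in ES-2, 848 and 832 in Huh-7, 612 and 660 in MV-3, and 283 and 249 in A-549. Libraries of different lines overlapped for neither miRNA, and both followed the order of miR-92a-3p. By library CPM, Huh-7 was highest for both, with 1616 ± 75.3 for miR-20a-5p and 1402 ± 21.9 for miR-17-5p, against 1487 ± 27.0 and 963 ± 67.8 in ES-2. On that scale the difference between Huh-7 and ES-2 passed the test for miR-17-5p, with limma's adjusted p = 0.00346, and not for miR-20a-5p, with 0.189.

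miR-18a-5p has a seed of its own within the cluster, and processing of its hairpin is known to be promoted by the RNA-binding protein hnRNP A1. It reached 550 and 537 normalised CPM in ES-2, 533 and 486 in Huh-7, 256 and 264 in MV-3, and 133 and 113 in A-549. ES-2 lay just above Huh-7, by less than the gap between the Huh-7 libraries, and MV-3 and A-549 lay clearly lower. The partner arm miR-18a-3p had 93.7 and 85.3 normalised CPM in ES-2, 128 and 115 in Huh-7, 89.6 and 104.8 in MV-3, and 27.7 and 47.4 in A-549. It was the only member with the highest mean in Huh-7 on both scales, and its ES-2 and MV-3 libraries overlapped.

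The miR-19 pair, regarded as the main oncogenic component of the cluster in MYC-driven lymphoma, had fewer reads than the miR-17 pair. miR-19b-3p had 636 and 609 normalised CPM in ES-2, 417 and 338 in Huh-7, 333 and 242 in MV-3, and 200.05 and 205 in A-549. miR-19a-3p had 281 and 207 in ES-2, 249.8 and 198 in Huh-7, 207 and 150.4 in MV-3, and 76.9 and 90.8 in A-549. For miR-19a-3p, the libraries of ES-2, Huh-7 and MV-3 overlapped, and A-549 lay below all others. For miR-19b-3p, no lines overlapped, but the higher MV-3 library lay close to the lower one of Huh-7.

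miR-17-3p was the least abundant member and had 4 to 47 reads per library. Its normalised CPM was 31.2 and 21.1 in ES-2, 13.2 and 3.76 in Huh-7, 12.6 and 11.5 in MV-3, and 6.77 and 3.27 in A-549. ES-2 lay above the others, whereas the Huh-7 libraries, with 47 and 11 reads, overlapped with those of both MV-3 and A-549.

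Differences among the lines were tested with limma on log2(normalised CPM + 1) over 528 miRNAs, with Benjamini-Hochberg adjustment over all of them and calls below 0.01. Of the 8 members, 7 were called, and 68.2% of all miRNAs tested were called too, so that such a difference was common in these lines. The exception was miR-17-3p, with an adjusted p of 0.0598. Without single libraries, fewer of the 528 miRNAs were called, and some members lost their calls. For miR-18a-3p this held without any single library of ES-2, MV-3 or Huh-7. For miR-19a-3p it held without ES-2 replicate 1 or any library of Huh-7 or A-549, and for miR-19b-3p without A-549 replicate 1. Adjusted p was 4.06e-06 for miR-92a-3p, 1.12e-05 for miR-17-5p, 1.23e-05 for miR-20a-5p, 1.45e-05 for miR-18a-5p, 0.000839 for miR-19b-3p, 0.00336 for miR-19a-3p and 0.00408 for miR-18a-3p. All contrasts of pairs of lines below come from this fit and share libraries with each other.

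**Figure D2:**
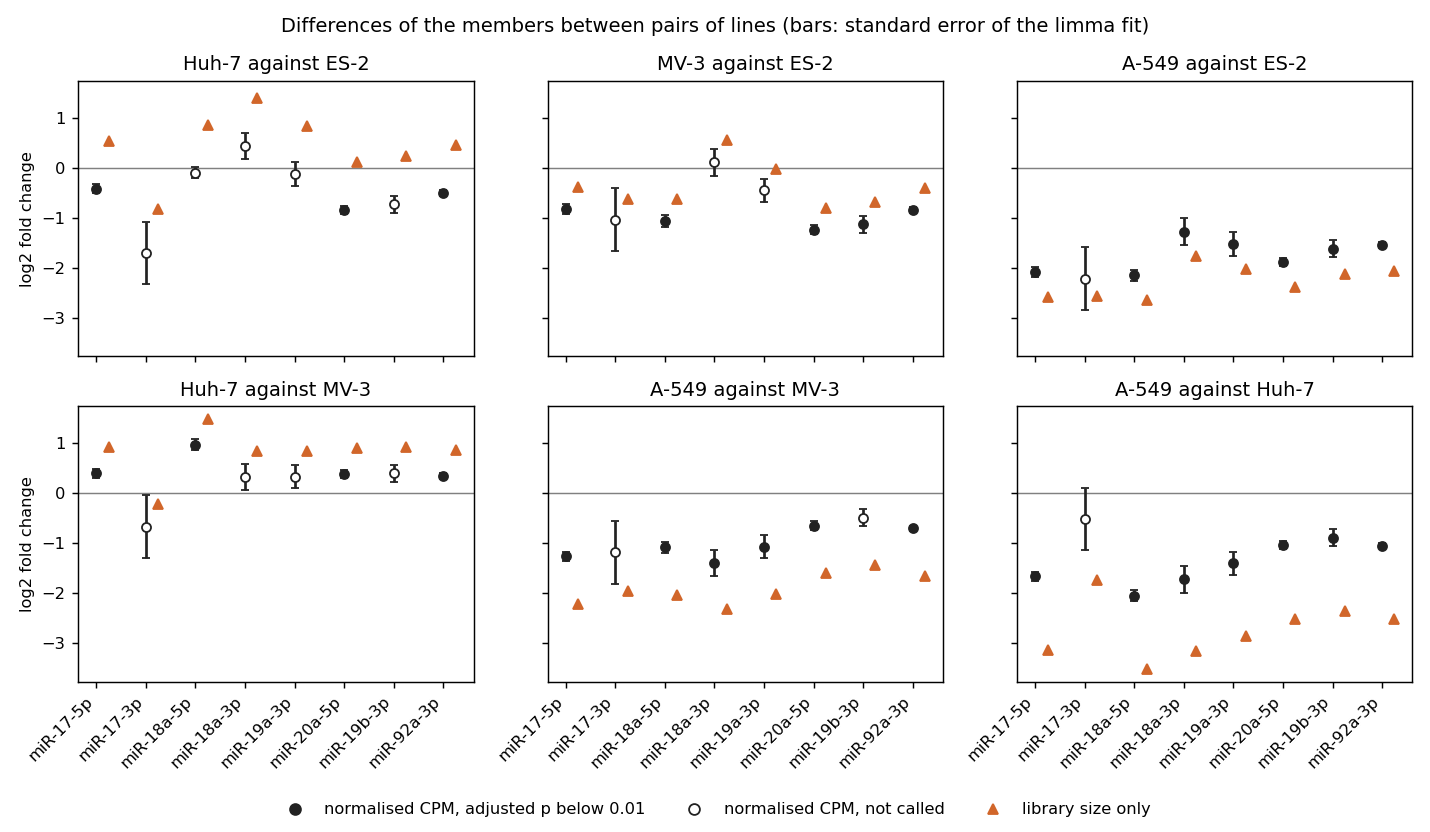
Log2 fold changes of the 8 members for the 6 pairs of lines. Circles with bars are limma estimates with standard errors on log2(normalised CPM + 1), filled where the adjusted p was below 0.01, and triangles are the estimates with scaling by library size only. In A-549 against each other line all circles lie below 0, whereas 6 members change sign between the scales in Huh-7 against ES-2.

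A-549 cells had less of the cluster than any other line. Against ES-2, 7 of the 8 members were called lower in A-549, where 17.6% of all miRNAs were called in this direction. The median log2 fold change of the members was -1.74, beside 0.0031 for all miRNAs tested. The log2 fold change was -2.14 for miR-18a-5p (SE 0.11, limma's adjusted p = 1.23e-05), -2.08 for miR-17-5p (SE 0.093) and -1.88 for miR-20a-5p (SE 0.084). It was -1.61 for miR-19b-3p, -1.54 for miR-92a-3p (SE 0.054, limma's adjusted p = 2.83e-06), -1.52 for miR-19a-3p and -1.28 for miR-18a-3p. Thus miR-17-5p, miR-18a-5p and miR-20a-5p changed most among the called members and miR-18a-3p least. miR-17-3p had an estimate of -2.21 with a wide error (SE 0.63, adjusted p = 0.0243). The call of miR-18a-3p was lost without any single library but A-549 replicate 2, with log2 fold changes of -1.35 to -0.90, and that of miR-19a-3p without ES-2 replicate 1 (-1.30), A-549 replicate 1 (-1.40) or A-549 replicate 2 (-1.64).

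Against Huh-7, 7 of the 8 members were called lower in A-549, beside 23.7% of all miRNAs, and against MV-3 it was 6 of 8, beside 15.5%. The members' median was -1.22 against Huh-7 and -1.07 against MV-3, while the medians of all miRNAs were -0.093 and 0.085. In both contrasts miR-20a-5p, miR-19b-3p and miR-92a-3p had log2 fold changes closer to 0 than miR-17-5p, miR-18a-5p, miR-18a-3p and miR-19a-3p. The log2 fold change of miR-92a-3p was -1.05 against Huh-7 and -0.70 against MV-3. That of miR-18a-5p was -2.05 and -1.08, and that of miR-17-5p was -1.66 and -1.26. For miR-19b-3p the value against MV-3 was -0.48, which was not called (limma's adjusted p = 0.0562). Scaling by library size only moved the median of all miRNAs by -1.28 against Huh-7 and by -0.61 against MV-3, and the members' medians became -2.69 and -1.98. Against Huh-7, miR-18a-3p, miR-19a-3p and miR-19b-3p lost their calls without Huh-7 replicate 1 or replicate 2, with log2 fold changes of -1.79 to -0.73. Of these, miR-19b-3p also lost its call without any single library of ES-2 or A-549, and miR-19a-3p without any of A-549. Against MV-3, the call of miR-19a-3p was lost without any single library, with log2 fold changes of -1.29 to -0.84, and that of miR-18a-3p without any but those of A-549.

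Between MV-3 and ES-2, 5 of the 8 members were called lower in MV-3, beside 14.2% of all miRNAs in this direction. These were miR-20a-5p with a log2 fold change of -1.23 (SE 0.084, limma's adjusted p = 7.49e-05), miR-19b-3p with -1.13, miR-18a-5p with -1.06, miR-92a-3p with -0.84 and miR-17-5p with -0.82. The remaining values were -1.03 for miR-17-3p, -0.45 for miR-19a-3p and 0.12 for miR-18a-3p, none of them called. With library size only, the median of all miRNAs moved by 0.36 and 3 members were called lower, beside 11% of all miRNAs, while miR-17-5p (-0.38) and miR-19b-3p (-0.69) lost their calls. The call of miR-19b-3p was also lost without either library of ES-2 or A-549 and without MV-3 replicate 2, with -0.90 for the last of these.

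Huh-7 exceeded MV-3 in most members by modest amounts. Here 4 of the 8 were called higher in Huh-7, beside 26.9% of all miRNAs. The members' median log2 fold change was 0.37, beside 0.19 for all miRNAs tested. The largest difference was that of miR-18a-5p, with a log2 fold change of 0.97 (SE 0.11, limma's adjusted p = 0.000351). miR-17-5p (0.40), miR-20a-5p (0.39) and miR-92a-3p (0.35) followed. The calls of miR-17-5p and miR-20a-5p were near the threshold, with limma's adjusted p of 0.00987 and 0.00691, and edgeR and DESeq2 called neither. miR-18a-5p alone remained called without Huh-7 replicate 1 or without MV-3 replicate 1, with miR-92a-3p at 0.30 and 0.31, and miR-17-5p and miR-20a-5p also lost their calls without either library of ES-2 or MV-3.

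The direction between Huh-7 and ES-2 depended on the scale. By normalised CPM, 3 of the 8 members were called lower in Huh-7, beside 21.6% of all miRNAs, and these were miR-20a-5p (-0.84), miR-92a-3p (-0.50) and miR-17-5p (-0.42). miR-19b-3p had a larger value than the last 2 of these, -0.73, and missed the threshold narrowly (limma's adjusted p = 0.0109). It was called with RLE factors, edgeR and DESeq2, of which edgeR did not call miR-17-5p (adjusted p = 0.0115). With library size only, 4 members were called higher in Huh-7, beside 43% of all miRNAs, with log2 fold changes of 1.39 for miR-18a-3p, 0.87 for miR-18a-5p, 0.54 for miR-17-5p and 0.46 for miR-92a-3p. This scaling moved the median of all miRNAs by 0.74. Relative to the median of all miRNAs, the members' median was -0.79 by normalised CPM and -0.57 with library size only. Within the cluster, miR-18a-3p had the highest value in this pair on both scales (0.44 by normalised CPM), followed by miR-18a-5p and miR-19a-3p (-0.094 and -0.12 by normalised CPM, 0.87 and 0.84 with library size only). The call of miR-17-5p by normalised CPM was lost without any single library of ES-2, Huh-7 or MV-3, with log2 fold changes of -0.47 to -0.36.

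Ratios between members within a library do not depend on the scaling factor, and 8 ratios were therefore compared among the lines. Each was tested by an exact permutation test of the F ratio over all 105 partitions of the 8 libraries into pairs, for which the smallest possible p is 0.00952. After adjustment over the ratios, 0 of 8 passed 0.05, and 3 had an unadjusted p below 0.05 in this permutation test. A ratio that alone reaches the smallest p gets an adjusted p of 0.0762, so no single ratio could pass by itself. The lack of passing ratios therefore does not show that the ratios were alike. A pair of lines cannot be tested in this way, because 2 against 2 libraries allow no exact p below 0.333. The ratios to miR-17-5p share their denominator.

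Reads of miR-92a-3p per read of miR-17-5p relate the last hairpin of the cluster, with its copy on chromosome X, to the first. There were 51.9 and 58.5 in ES-2, 53.2 and 51.2 in Huh-7, 54.8 and 53.7 in MV-3, and 75.0 and 85.4 in A-549. Both A-549 libraries lay above the 6 others, which overlapped between lines, and the mean of A-549 was 1.53-fold that of Huh-7. The exact permutation test gave p = 0.0952 and an adjusted p of 0.152. The reads of miR-17-5p behind the A-549 values were 459 and 304.

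The miR-20a-5p to miR-17-5p ratio compares members that share a seed. It was 1.49 and 1.60 in ES-2, 1.20 and 1.10 in Huh-7, 1.20 and 1.12 in MV-3, and 1.59 and 2.0 in A-549. MV-3 overlapped with Huh-7, and both lay below the other two lines, with an exact permutation p of 0.0476 and an adjusted p of 0.114. The ratio of miR-19b-3p to miR-19a-3p, which also share a seed, was 2.26 and 2.94 in ES-2, 1.67 and 1.71 in Huh-7, 1.61 and 1.61 in MV-3, and 2.60 and 2.26 in A-549. Again Huh-7 and MV-3 lay below both other lines (exact permutation p = 0.0381, adjusted p = 0.114).

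For miR-18a-5p over miR-17-5p, Huh-7 stood highest. The ratio was 0.629 and 0.584 in Huh-7, 0.471 and 0.498 in ES-2, 0.471 and 0.454 in A-549, and 0.418 and 0.400 in MV-3. Only ES-2 and A-549 came close to each other. The F ratio was higher for the true lines than for any other partition, so that the exact permutation test reached its smallest value, p = 0.00952, with an adjusted p of 0.0762. The largest difference, between Huh-7 and MV-3, was 1.48-fold.

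The remaining ratios of major arms were less precise. miR-19a-3p over miR-17-5p ranged from 0.192 to 0.365 over the libraries, with MV-3 and Huh-7 overlapping with every line and ES-2 below A-549 (exact permutation p = 0.467). miR-19b-3p over miR-17-5p was 0.708 and 0.826 in A-549 and 0.367 to 0.564 in the other lines (exact permutation p = 0.0571, adjusted p = 0.114). A-549 thus stood above every library of the other lines for miR-19b-3p, as for miR-92a-3p, but not for miR-19a-3p.

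**Figure D3:**
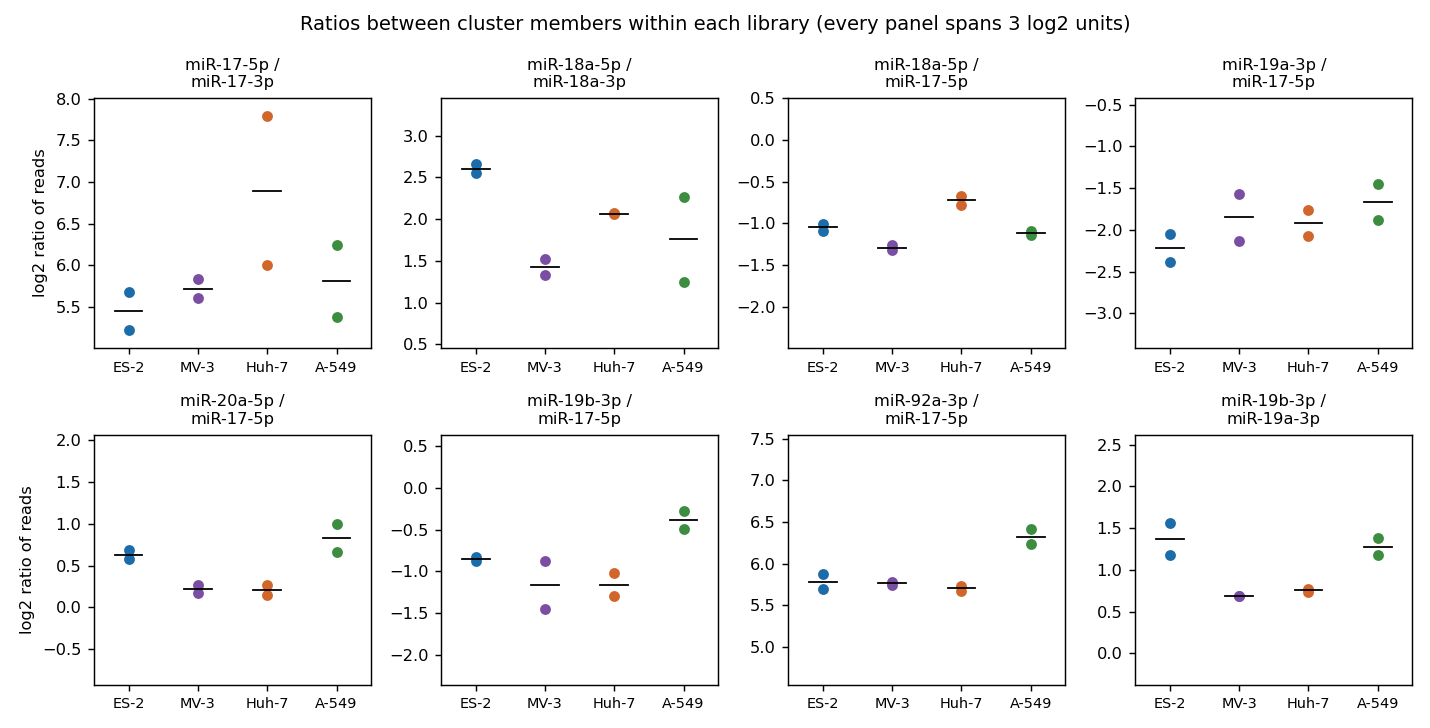
Log2 ratios of reads between members in each library, with a point per library and a black bar for the mean of each line. Every panel spans the same range; in miR-92a-3p over miR-17-5p the A-549 libraries lie above the others, and in miR-18a-5p over miR-17-5p the Huh-7 libraries do.

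Reads were divided unequally between the arms of a hairpin, and these shares of reads are not shares of molecules. The 3p arm made up 13.7% to 29.6% of the reads of the miR-18a hairpin, but only 0.45% to 2.61% of those of miR-17. In the miR-18a hairpin, the 3p share was 14.6% and 13.7% in ES-2, 19.4% and 19.2% in Huh-7, 25.9% and 28.4% in MV-3, and 17.2% and 29.6% in A-549. ES-2 lay below the 3 other lines, while the A-549 libraries, with 45 and 58 reads of the 3p arm, spanned the range from below Huh-7 to above MV-3. The exact permutation test of the arm ratio gave p = 0.171 for miR-18a and p = 0.276 for miR-17. In Huh-7, the 3p share of miR-17 was 1.54% (exact 95% interval 1.13 to 2.04) in replicate 1 and 0.45% (0.225 to 0.803) in replicate 2, so the replicates differed beyond the counting error of the reads.

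The other arms of the same hairpins, which are not members, were rare except that of miR-92a-1. miR-20a-3p had 5 to 37 reads per library and miR-19b-1-5p at most 9. miR-19a-5p had 0 reads in all libraries, which allows a share of the arms of up to 0.338% in Huh-7 replicate 1 and up to 2.70% in A-549 replicate 2. miR-92a-1-5p had 131 to 1021 reads and is specific to the chromosome 13 copy. Its sequence and that of the corresponding arm from chromosome X (seeds in capitals) are shown because they tell the miR-92a copies apart, which the major arm cannot.
hsa-miR-92a-1-5p: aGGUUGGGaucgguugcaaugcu
hsa-miR-92a-2-5p: gGGUGGGGauuuguugcauuac

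miR-92a-1-5p had 439 and 524 normalised CPM in ES-2, 208 and 206 in Huh-7, 97.0 and 89.4 in MV-3, and 115 and 111 in A-549. The lines did not overlap on either scale. ES-2 was far above the rest by normalised CPM, but by library CPM it had 381 and 445, against 340 and 350 in Huh-7. The log2 fold change of MV-3 against ES-2 was -2.35 for miR-92a-1-5p (SE 0.12, limma's adjusted p = 2.6e-05) and -0.84 for miR-92a-3p. Between MV-3 and A-549 the order of this arm depended on the scale, with 112 and 105.2 library CPM in MV-3 and 70.04 and 66.0 in A-549. As a share of both arms, which is free of scaling, miR-92a-1-5p reached 0.720% and 0.824% in ES-2, 0.460% and 0.481% in Huh-7, 0.288% and 0.252% in MV-3, and 0.540% and 0.521% in A-549. The exact 95% binomial intervals of ES-2 and of MV-3 overlapped with those of no other line, and those of Huh-7 and A-549 overlapped with each other. These intervals cover counting error only, and the difference of the shares was not tested over replicates. The denominator holds miR-92a-3p from both copies.

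**Figure D4:**
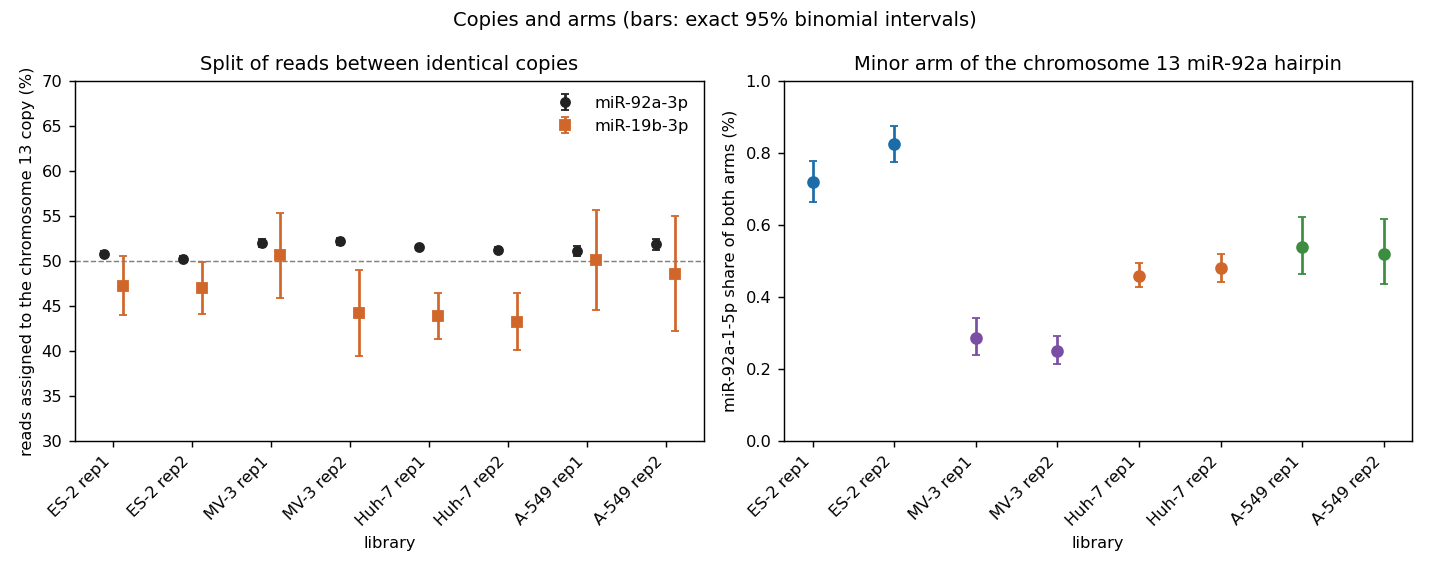
Left, percent of the reads of miR-92a-3p and miR-19b-3p that were assigned to the chromosome 13 entry in each library; right, percent of miR-92a arm reads from miR-92a-1-5p, colored by line, both with exact 95% binomial intervals. The left values lie between 43.3% and 52.2%, and the right values are highest in ES-2 and lowest in MV-3.

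Reads of miR-92a-3p were split almost evenly between its identical copies. The chromosome 13 entry held 50.3% to 52.2% of them over the 8 libraries. At 25971 to 160209 reads per library, this was above 50% beyond counting error in 7 of 8 libraries. For miR-19b-3p it held 43.3% to 50.7%, and the interval lay below 50% in 4 of 8 libraries. Products of the chromosome X cluster that differ in sequence were at or near 0 in the same libraries. miR-92a-2-5p and miR-19b-2-5p had 0 reads in all 8 libraries, miR-363-3p had at most 6 reads, and miR-20b-5p and miR-18b-5p had at most 4. The 10 mature products listed for the X cluster had 12 to 56 reads per library in all, most of them from miR-106a-5p, which differs from miR-17-5p by C1A alone. Because the copies share a sequence, the counts per copy of miR-92a-3p and miR-19b-3p cannot be read as the output of each locus. With the chromosome 13 entries alone, the same number of members was called in each pair of lines except A-549 against Huh-7, where miR-19b-3p lost its call (limma's adjusted p = 0.0346).

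The chromosome 7 paralogs are encoded by the miR-106b-25 cluster within MCM7 and carry seeds of the miR-17 and miR-92 groups. Of its 6 products, limma called 0 between A-549 and ES-2, beside 41.3% of all miRNAs in either direction, as did edgeR and DESeq2, and 1 had an unadjusted p below 0.05. Their median log2 fold change was -0.017 in this pair, beside -1.74 for the members, and -0.43 against Huh-7, where 2 of the 6 were called lower in A-549, beside 23.7% of all miRNAs. Between Huh-7 and MV-3 the median of the 6 products was 0.70, beside 0.37 for the members. In that pair 4 of the 6 were called higher in Huh-7, beside 26.9% of all miRNAs, and 1 was called lower. The difference between the clusters was not tested.

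The weight of the cluster within its seed groups differed between lines. miR-17-5p and miR-20a-5p provided 33.9% ± 2.08 of the reads with the seed AAAGUGC in ES-2 (SD, n = 2), 16.8% ± 0.0561 in Huh-7, 19.8% ± 1.20 in MV-3 and 11.95% ± 0.670 in A-549. The largest other contributor was miR-93-5p of the chromosome 7 cluster, with 13693 ± 63.6 library CPM in Huh-7, 5968 ± 767 in MV-3, 4328 ± 292 in ES-2 and 2957 ± 240.3 in A-549. For the seed AUUGCAC, miR-92a-3p provided 92.1% ± 0.203 of reads in ES-2, 87.3% ± 0.235 in Huh-7, 79.5% ± 1.43 in MV-3 and 78.7% ± 0.0504 in A-549, so that MV-3 and A-549 differed by less than the spread of the replicates. Its main relatives were miR-25-3p, with 9829 ± 311 library CPM in Huh-7, and miR-92b-3p, with 7422 ± 166 in MV-3. The seed GUGCAAA was found in miR-19a-3p and miR-19b-3p alone among the names measured, and at least 99.7% of reads with the miR-18a-5p seed came from miR-18a-5p in the mean of each line.

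Over the 8 libraries, the profile of miR-17-5p on log2(normalised CPM + 1) was most like that of miR-92a-3p (Pearson's r = 0.979) and miR-18a-5p (0.974) among the members, and least like that of miR-17-3p (0.714). Among 175 other miRNAs averaging 100 normalised CPM or more, the most similar to miR-17-5p were miR-10b-5p (0.967), miR-26a-5p (0.930), miR-30e-3p (0.911), miR-574-3p (0.908) and miR-130b-5p (0.891). For miR-92a-3p they were miR-10b-5p (0.932), miR-26a-5p (0.903), miR-671-5p (0.855), miR-92a-1-5p (0.834) and miR-615-3p (0.831). These coefficients describe 4 pairs of libraries that share depth and scaling factors, and non-members such as miR-10b-5p reached values as high as those of members.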

How the data were processed

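Small RNA-seq was performed by the authors on total RNA of 8 libraries, 2 per line. Per the labels and methods, reads were clipped with cutadapt 1.14, aligned to GRCh38 with Bowtie2 2.3.2 and counted on miRBase mature miRNAs with featureCounts 1.5.3. The deposited table holds signal values, which are counts per 1000000 reads scaled by TMM, with edgeR 3.18.1 named in the processing notes. How reads with several genomic places and strand were treated is not given in the sources used here. Adapters of this library kit carry random bases, and their use to collapse PCR copies was not stated, so intervals cover counting error of reads only.

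Within a library, all deposited values were multiples of a single step, the worth of 1 read. Divided by it, 100% of values were whole at a tolerance of 0.001, which gave the reads, the depth and the TMM factor. The 2813 entries were summed to 2588 names. Replicates of a line differed by more than counting error, with chi-square per degree of freedom of 8.53 to 15.6, so neither was a copy of the other. Whether they came from separate cultures was not tested by this. In limma, differences between lines were set against a spread estimated from the replicates of all lines together and moderated over all miRNAs tested.

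The main test was limma 3.58.1 with a mean-dependent prior variance on log2(normalised CPM + 1), with 1 term per line over all 8 libraries and 4 residual degrees of freedom. This scale understates changes of rare miRNAs. filterByExpr left 528 miRNAs, including all 8 members. Calls required an adjusted p below 0.01. The model was tested on simulated reads. The permutation test of F has no direction. The members, lists and ratios were chosen with earlier results of these data known. Named miRNAs are the members, other arms of the same hairpins, relatives by seed, and the 5 non-members most correlated with miR-17-5p or miR-92a-3p. Alternatives were RLE factors, library size only, other filters, a pseudocount of 0.1, edgeR 4.0.16, DESeq2 1.42.0, an adjusted p below 0.05, chromosome 13 entries only, a replicate block, fits to the 2 lines compared and omission of single libraries. Software was R 4.3.3, Python 3.11.15, scipy 1.17.1 and pandas 2.3.3.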

Additional observations from a re-analysis of the deposited data

How the results depend on the processing

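Of 1056 values of single members under alternative settings, 923 kept their direction and side of the threshold, 111 lost a call, 12 gained a call and 10 changed direction. Many of these values had little room to change. Chromosome 13 entries only altered the reads of miR-19b-3p and miR-92a-3p alone. Omission of a library outside a pair left its fold changes as they were, and the limit of 0.05 could not end a call. With library size only, Huh-7 minus ES-2 changed direction for miR-17-5p (0.54), miR-18a-5p (0.87), miR-19a-3p (0.84), miR-20a-5p (0.12), miR-19b-3p (0.23) and miR-92a-3p (0.46). Without single libraries, miR-19a-3p in this pair ranged from -0.34 to 0.10, and miR-17-3p ranged from -1.46 to 0.13 in Huh-7 minus MV-3 and from -1.30 to 0.28 in A-549 minus Huh-7. Changes by a single member are not listed here. The number of members called changed from 5 to 3 in MV-3 minus ES-2 with library size only and with only the 2 lines compared. In the latter fits it also fell from 7 to 5 in A-549 minus ES-2 and in A-549 minus Huh-7. In A-549 minus MV-3 it fell from 6 to 4 in these fits and with no filter. In Huh-7 minus MV-3 it changed from 4 to 2 with RLE factors, no filter, edgeR, DESeq2 and the replicate block, and to 1 with only the 2 lines compared. With the replicate block, 139 of all 528 miRNAs were called higher in Huh-7 than in MV-3, beside 142 without it. The number of members called also fell without some single libraries in Huh-7 minus MV-3 and in A-549 minus Huh-7. Where no count over all miRNAs is given, these numbers describe the members only. With only the 2 lines compared, the count over all miRNAs changed from 136 to 73 in MV-3 minus ES-2 and from 218 to 145 in A-549 minus ES-2. Fewer samples enter these fits, and other causes were not tested. The largest log2 difference between lines ranged, without single libraries, from 0.55 to 2.34 for miR-17-5p over miR-17-3p, from 0.46 to 0.79 for miR-20a-5p over miR-17-5p, from 0.52 to 0.71 for miR-92a-3p over miR-17-5p and from 0.49 to 0.87 for miR-19b-3p over miR-19a-3p. No p was computed for ratios without single libraries, and the adjusted p of each ratio was above 0.05 with 0.5 reads added, linear ratios, chromosome 13 entries only and the replicate block. The block allows so few rearrangements that ratios could pass only if nearly all reached its smallest p. Its outcome was thus largely fixed in advance, and a single ratio could not pass in the other settings either.

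Replicate numbers showed no clear pairing of the libraries, with correlations of replicate differences between lines from -0.05 to 0.23. The highest was that of ES-2 with Huh-7, and such values cannot exclude that libraries with the same replicate number shared a batch. With the replicate block, 6 members were called lower in A-549 minus ES-2, beside 83 of all 528 miRNAs, and 7 in A-549 minus Huh-7, beside 128. It was 6 in A-549 minus MV-3 (80 of all miRNAs), 3 in Huh-7 minus ES-2 (109) and 5 in MV-3 minus ES-2 (71). In Huh-7 minus ES-2 the block ended the call of miR-17-5p (limma's adjusted p = 0.0128) and added one for miR-19b-3p (0.00731). With 2 libraries per line and 4 residual degrees of freedom, small differences may be missed, most of all for miR-17-3p, where 3 reads were worth 0.845 to 2.45 normalised CPM.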
